A study of Mus musculus with 4 samples.

Results

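Pax7 peaks were examined around 8 genes of the insulin-like growth factor (IGF) system, namely the ligands Igf1 and Igf2, the receptors Igf1r and Igf2r, and the binding proteins Igfbp2, Igfbp3, Igfbp4 and Igfbp5. A peak belonged to a gene when its summit lay inside the gene or within 100 kb of either end, in the GENCODE annotation of the mouse build NCBIM37 (mm9). This rule took 35 of the 20579 peaks and 8 of 22350 protein-coding genes, in 38 gene and peak pairs, because 3 peaks fell in the windows of both Igfbp2 and Igfbp5. The rule uses position alone and no measured value of a peak, but the 8 genes were picked with earlier results of these data known.

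Chromatin bound by Pax7 was collected by ChIP-seq from differentiating mouse ES cells of the iPax7 line, in which doxycycline (Dox) switches on a Pax7 transgene. The ChIP was made in 2 libraries, and 2 libraries of input chromatin served as the control. All 4 came from cultures differentiated in serum, given Dox at 1 µg/ml from day 3, sorted as PDGFRα+FLK1- on day 5 and collected on day 9, after 6 days of Dox. Since every library carried the transgene and Dox, the peaks describe binding of Pax7 under induction, and no untreated library was analysed here. The ChIP used an antibody to Pax7 itself, so induced Pax7 cannot be told apart from any endogenous Pax7. The authors called peaks on the merged libraries, so there is 1 value per peak with no replicate error, no test between conditions could be made, and comparisons with other peaks or genes are descriptions. The list gives no read count, so the depth behind a single peak is unknown, and it gives no expression value, so markers of the cells could not be checked.

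IGF1 and IGF2 are secreted growth factors that promote the proliferation, survival, differentiation and growth of muscle cells. Both act through the receptor tyrosine kinase IGF1R, which recruits adaptors such as IRS1 and feeds the PI3K, Akt and mTOR pathway, whereas IGF2R carries IGF2 to lysosomes. The IGF binding proteins hold the ligands outside the cell and either restrain or prolong their action. Pax7, a marker of muscle progenitors and satellite cells, binds DNA through a paired domain and a homeodomain.

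The sequence of 101 bp centred on the summit is given for the strongest peak of each gene, where fold enrichment was highest, and for each peak within 1 kb of a transcription start site (TSS) of these genes. All are on the plus strand of NCBIM37, with capitals marking matches on either strand to the letters searched. The letters were the paired-box core GTCACG, the paired-box and homeobox composites ATTAGTCAC and ATTAGTCAT, the homeodomain dimers TAATNNNATTA and TAATNNATTA, the E-box CAGCTG, the AP-1 site TGANTCA, the Tead site GGAATG and the Runx site TGTGGT. The composite ATTAGTCAC followed by G also holds the core, and ATTAGTCAT does not. The peak upstream of Igfbp5 is the strongest for both Igfbp5 and Igfbp2, so the strongest peaks number 7.
Igfbp5 and Igfbp2, chr1:72925626-72925726: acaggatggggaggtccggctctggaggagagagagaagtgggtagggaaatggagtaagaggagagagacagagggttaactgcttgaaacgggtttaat
Igfbp3, chr11:7137838-7137938: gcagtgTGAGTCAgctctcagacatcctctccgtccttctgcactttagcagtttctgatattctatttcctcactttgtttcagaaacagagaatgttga
Igf2, chr7:149739488-149739588: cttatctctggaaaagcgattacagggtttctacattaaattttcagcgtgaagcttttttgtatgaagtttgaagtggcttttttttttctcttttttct
Igf1, chr10:87335089-87335189: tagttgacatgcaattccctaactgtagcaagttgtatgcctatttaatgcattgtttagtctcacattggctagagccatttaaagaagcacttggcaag
Igf2r, chr17:12944334-12944434: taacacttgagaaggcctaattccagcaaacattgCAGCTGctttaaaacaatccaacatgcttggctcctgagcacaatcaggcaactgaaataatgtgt
Igf1r, chr7:75219841-75219941: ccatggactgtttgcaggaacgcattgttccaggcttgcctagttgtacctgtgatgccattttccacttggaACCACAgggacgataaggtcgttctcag
Igfbp4, chr11:98980819-98980919: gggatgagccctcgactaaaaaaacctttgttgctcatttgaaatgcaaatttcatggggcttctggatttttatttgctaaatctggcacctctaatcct
Igf1r promoter, chr7:75096726-75096826: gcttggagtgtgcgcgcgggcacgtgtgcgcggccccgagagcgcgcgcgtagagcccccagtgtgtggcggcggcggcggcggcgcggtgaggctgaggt

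None of these 7 strongest peaks held a Pax motif within 50 bp of its summit, a count of 0 that allows a share of up to 42.9%, and the share over all peaks, 14.6%, is within that limit. Capitals in them mark an AP-1 site at Igfbp3, an E-box at Igf2r and a Runx site at Igf1r. The 5 IGF peaks that did hold a Pax motif were chosen for display after their values were seen. Their fold enrichment was at most 6.78, as it was for 25 of all 35 IGF peaks. They are shown here because the Pax letters lie near the summit in each.
Igf1, chr10:87494941-87495041: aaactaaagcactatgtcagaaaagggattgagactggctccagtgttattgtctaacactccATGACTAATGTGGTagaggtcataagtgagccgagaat
Igf1r, chr7:75029037-75029137: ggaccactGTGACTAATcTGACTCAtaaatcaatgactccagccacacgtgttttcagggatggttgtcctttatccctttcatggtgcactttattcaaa
Igf2r, chr17:12961029-12961129: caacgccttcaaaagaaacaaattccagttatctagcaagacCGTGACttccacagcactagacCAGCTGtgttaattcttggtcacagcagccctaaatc
Igfbp2 and Igfbp5, chr1:72827542-72827642: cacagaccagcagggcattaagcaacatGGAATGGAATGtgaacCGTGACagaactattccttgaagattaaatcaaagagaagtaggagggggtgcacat
Igfbp3, chr11:7121171-7121271: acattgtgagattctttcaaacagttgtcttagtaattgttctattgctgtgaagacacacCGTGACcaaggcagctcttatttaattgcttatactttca

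All 8 IGF genes had at least 1 Pax7 peak in their window, against 75.2% of protein-coding genes. At least 1 peak of 5-fold enrichment or more was also present at 8 of 8, against 61.3%. The only such peak of Igfbp2 was shared with Igfbp5. Fold enrichment here is the authors' ratio of ChIP signal to local background at the summit. A peak of 10-fold or more was present at 3 of the 8, Igfbp2, Igfbp5 and Igfbp3, against 15.0%, with the first 2 sharing 1 peak. The median number of peaks per gene was 4 for the IGF genes and 2 for all protein-coding genes, whose quartiles were 1 and 4. The median distance from the TSS to the nearest peak was shorter at the IGF genes, 9.17 kb against 41.0 kb. Igf2, at 104 kb, and Igfbp2, at 43.5 kb, were above the median of all protein-coding genes.

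Peaks were also denser over the IGF windows, which span 1.93 Mb once overlaps are merged. The density was 18.2 peaks per Mb, whereas the windows of all protein-coding genes held 9.54 peaks per Mb. Igf1r contributed most to this value. Without Igf1r, 21 peaks remained at 14.5 per Mb, and leaving out any other gene gave 16.9 to 20.1 per Mb.

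**Figure D1:**
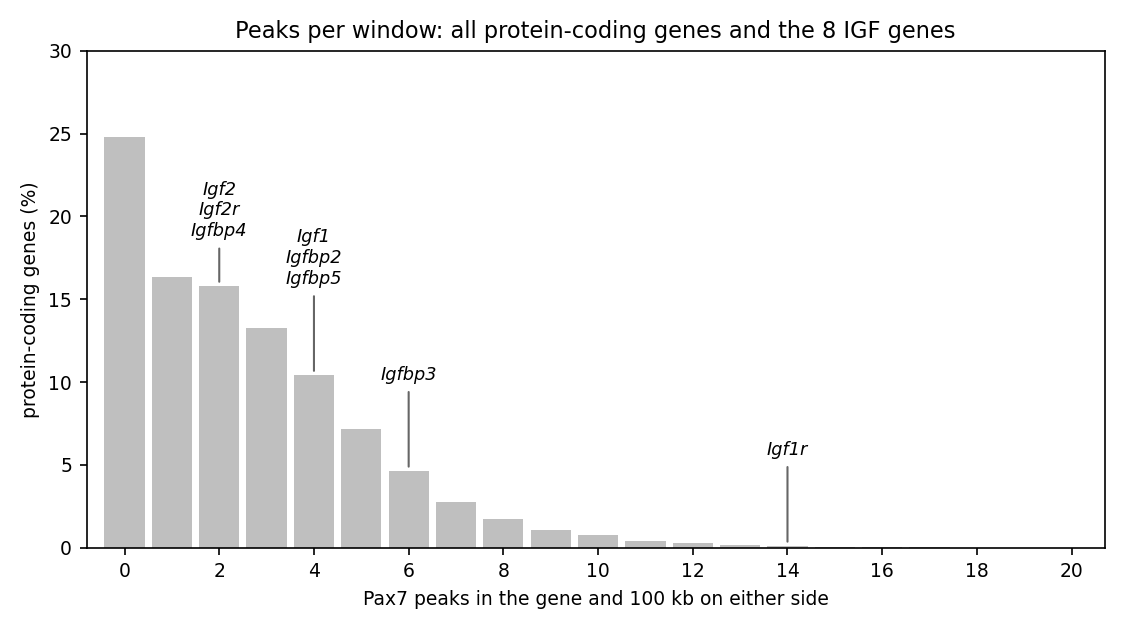
Share of 22350 protein-coding genes (y axis, percent) by the number of Pax7 peaks in the gene and 100 kb on either side (x axis), with the 8 IGF genes marked at their own counts. Igf1r, with 14 peaks, lies far to the right, and 12 genes with more than 20 peaks are beyond the axis.

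Igf1, the growth factor that drives much of postnatal and regenerative muscle growth, had 4 peaks of similar strength, all above the median of the whole list. Igf1 (ENSMUSG00000020053.11) is transcribed from the plus strand at chr10:87321010-87399792. Its strongest peak, from 87334717 to 87335307, was in an intron 14.1 kb inside the gene, at 7.91-fold with a −log10 q of 24.7. That value was above 84.2% of all peaks. A neighbouring intronic peak from 87339418 to 87339820, with its summit 4447 bp away, had 6.90-fold enrichment. Upstream, 52.5 kb from the TSS in intergenic sequence, the peak from 87268293 to 87268698 had 6.32-fold enrichment and the highest −log10 q at this gene, 32.0.

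The fourth Igf1 peak, from 87494853 to 87495407, was 95.2 kb past the end of the gene with 6.78-fold enrichment. The nearest protein-coding TSS to it was that of Pmch, which encodes a hypothalamic neuropeptide precursor, at 58.8 kb. It held the composite ATTAGTCAT on the minus strand, centred 17 bp from the summit. No peak lay within 1 kb of an Igf1 TSS. With 4 peaks, Igf1 exceeded 70.2% of protein-coding genes, and its density of 14.3 peaks per Mb was above 68.7% of them.

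Igf2, the imprinted ligand expressed mainly before birth, had no peak in the gene or upstream within the window. Igf2 (ENSMUSG00000048583.9) is on the minus strand at chr7:149836673-149852721. Its 2 peaks were both downstream, beyond the imprinted noncoding gene H19. The nearer, from 149748994 to 149749251, was 104 kb from the Igf2 TSS and intergenic, with 3.84-fold enrichment, above only 12.0% of peaks. The farther, from 149739412 to 149739632, was 113 kb from the TSS with 9.18-fold enrichment, above 90.3% of peaks, and a −log10 q of 33.1.

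The stronger Igf2 peak was in an intron of Nctc1 (chr7:149730514-149744501), a noncoding gene transcribed across a muscle enhancer of the H19 and Igf2 domain. It was 24.5 kb downstream of the H19 TSS, and the weaker peak was 14.9 kb downstream of it. The nearest protein-coding TSS to both was that of Mrpl23, a mitochondrial ribosomal protein gene, 20.8 kb from the stronger peak and 30.4 kb from the weaker. Neither H19 nor Ins2, the insulin gene next to Igf2, contained a peak. The nearest peak upstream of Igf2 was 250 kb away, outside the window, with 4.53-fold enrichment. Of all protein-coding genes, 72.6% had a peak nearer to their TSS than Igf2 did.

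Igf1r, the signalling receptor for both ligands, had more peaks than any other of the 8 genes, 9 of them under 5-fold. Igf1r (ENSMUSG00000005533.8) covers 274 kb of the plus strand at chr7:75097713-75371484. Of its 14 peaks, 4 were upstream, 8 inside and 2 downstream. This count exceeded 99.6% of protein-coding genes, of which 89 had 14 or more. Igf1r is a long gene, but its density of 29.6 peaks per Mb was also above 95.1% of genes.

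Fold enrichment at the 14 Igf1r peaks ran from 3.24 to 7.56 with a median of 4.56, and 5 reached 5-fold. The 3 strongest were in different places. The peak from 75219759 to 75220049 was 122 kb inside the gene, at 7.56-fold (−log10 q 24.2). The peak from 75055292 to 75055647 was 42.2 kb upstream at 7.40-fold (−log10 q 25.3). The peak from 75328143 to 75328395 was 231 kb from the TSS in a coding exon, with 5.76-fold enrichment, and its summit was 416 bp from that of a 5.12-fold neighbour.

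A further Igf1r peak, from 75096727 to 75096916, was 937 bp upstream of the TSS. Its fold enrichment was 4.01, above 17.0% of peaks, and its −log10 q was 5.63. This promoter sequence, printed above, had a GC content of 78.2% and 18 CpG dinucleotides, more CpGs than 99.8% of peaks. It was the only IGF peak within 1 kb of the start of a gene, the other peak near a TSS being at an internal Igf2r transcript.

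The remaining Igf1r peaks had 3.24-fold to 5.40-fold enrichment. The one at 75028987 to 75029178, 68.6 kb upstream and 649 bp from another peak, held the composite ATTAGTCAC on the minus strand, centred 38 bp from its 3.96-fold summit. Both downstream peaks lay in introns of Fam169b, 3.48-fold and 5.40-fold. The 5.40-fold peak held GTCACG centred 49.5 bp from its summit, running just past the 101 bp searched. It also held TAATNNNATTA, centred 131 bp from the summit. Of the 14 peaks, 8 had the start of the Igf1r gene as the nearest start of a protein-coding gene, with internal transcript starts not counted. Among the 8, those from 75199044 to 75199384 and from 75219759 to 75220049 were nearer still to the start of an internal protein-coding Igf1r transcript. The other peaks inside Igf1r also had that start as the nearest. For example, the peak from 75296911 to 75297125 was 3.56 kb from that start and 112 kb from the start of Pgpep1l. Inside the gene body, 8 peaks were more than in 91.7% of 1422 protein-coding genes of 0.5 to 2 times its length, whose median was 2. That comparison was chosen after the counts were seen.

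**Figure D2:**
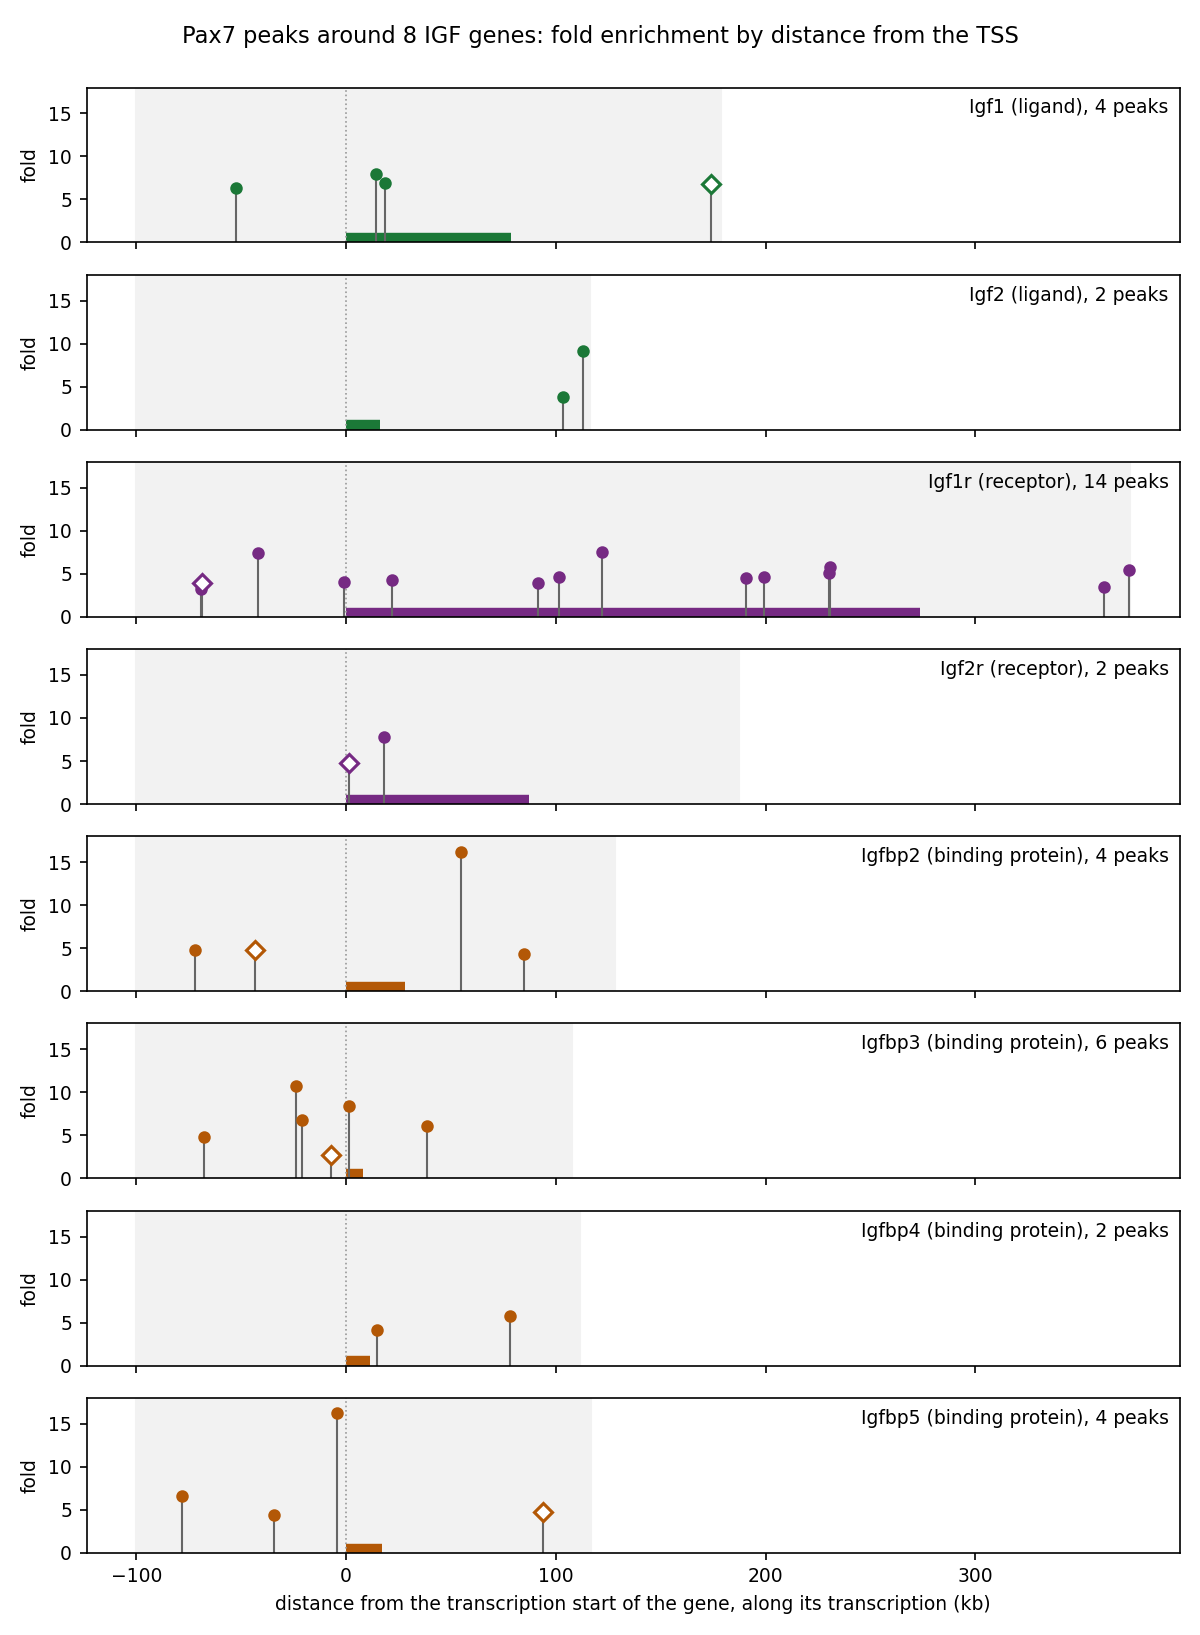
Pax7 peaks around each IGF gene, 1 panel per gene, plotted as fold enrichment (y axis) against distance of the summit from the TSS in kb (x axis, in the direction of transcription). Grey marks the window, the bar marks the gene, and open diamonds are peaks with a Pax motif within 50 bp of the summit. The 14 Igf1r peaks are spread along and around the gene, the Igf2 peaks lie 104 and 113 kb downstream, and the 16.2-fold peak stands next to the start of Igfbp5.

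Igf2r, the clearing receptor for IGF2, had 2 peaks, both inside the gene. Igf2r (ENSMUSG00000023830.7) is on the minus strand at chr17:12875272-12962530. The peak from 12944191 to 12944583 was 18.1 kb inside, at 7.78-fold (−log10 q 32.6). Its summit was 106 bp from the start of an internal protein-coding Igf2r transcript that GENCODE marks as putative and incomplete at its end, and the E-box CAGCTG was centred 12.5 bp from it. The peak from 12960980 to 12961237 was intronic, 1451 bp inside, at 4.82-fold (−log10 q 8.26).

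The weaker Igf2r peak held GTCACG on the minus strand, centred 5.5 bp from the summit, and an E-box at 16.5 bp. Both peaks also lay inside Airn (chr17:12934177-13052988), the antisense noncoding RNA that silences the paternal copy of Igf2r. They were 10.2 and 26.9 kb from the Airn TSS. A peak cannot be assigned to Igf2r or Airn from its position. The nearest peak upstream of Igf2r was 146 kb from its TSS, outside the window, with 9.20-fold enrichment.

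Igfbp5, a binding protein produced by differentiating muscle cells, had the strongest peak of the 8 genes. Igfbp5 (ENSMUSG00000026185.8, minus strand, chr1:72904506-72921458) and Igfbp2 (ENSMUSG00000039323.11, plus strand, chr1:72871077-72899048) are neighbours that converge. The peak from 72925245 to 72925885 was intergenic, 4218 bp upstream of the Igfbp5 TSS and 54.6 kb from that of Igfbp2. Its fold enrichment of 16.2 was above 99.2% of peaks and ranked 157 of 20579, and its −log10 q of 80.1 ranked 226. At 641 bp it was wide, with 1.17% of peaks wider.

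No Pax motif lay within 50 bp of the summit of this 16.2-fold peak. A search of the whole peak, made after that was seen, found GTCACG on the minus strand at 72925368 to 72925373, centred 306 bp from the summit. The nearest peak downstream of the Igfbp5 TSS was 93.9 kb away, so no peak lay in the gene itself.

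Igfbp2 and Igfbp5 shared 3 of their 4 peaks each. Besides the 16.2-fold peak, the shared peak from 72955886 to 72956114 was 34.5 kb upstream of Igfbp5 with 4.36-fold enrichment. It held an E-box, an AP-1 site and a Tead site. The shared peak from 72827430 to 72827698 was 43.5 kb upstream of Igfbp2 with 4.80-fold enrichment. GTCACG was centred 3.5 bp from its summit on the minus strand, beside overlapping copies of GGAATG.

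The peaks in the window of a single gene of this pair were farther out. For Igfbp2, the peak from 72798857 to 72799043 was 72.1 kb upstream with 4.80-fold enrichment, nearer to the ribosomal protein gene Rpl37a, at 41.1 kb. For Igfbp5, the peak from 72999370 to 72999701 was 78.1 kb upstream with 6.58-fold enrichment, nearer to the sperm protein gene Tnp1, at 63.0 kb. Neither gene had a peak inside it.

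Igfbp3, the main carrier of IGFs in serum, had 6 peaks near a short gene. Igfbp3 (ENSMUSG00000020427.5) is on the minus strand at chr11:7106089-7113926. Its count was above 87.8% and its density of 28.9 peaks per Mb above 94.2% of protein-coding genes. The peak nearest its TSS, from 7112139 to 7112554, was intronic and 1565 bp inside, at 8.40-fold (−log10 q 30.8). It held an AP-1 site and a Tead site.

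Upstream of Igfbp3, a pair of peaks had summits 3117 bp apart. The peak from 7137713 to 7138116 was 24.0 kb from the TSS with 10.8-fold enrichment, above 94.8% of all peaks, and a −log10 q of 43.1. The peak from 7134645 to 7134906 was 20.8 kb from the TSS with 6.83-fold enrichment, and its 101 bp had a GC content of 29.7%, the lowest of the IGF peaks.

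The other 3 Igfbp3 peaks had 2.74-fold, 4.82-fold and 6.12-fold enrichment. The 6.12-fold peak lay in an exon of Adcy1, and its nearest protein-coding TSS was that of Igfbp1, at 22.3 kb. The 4.82-fold peak lay in an intron of the noncoding gene Gm11986. The 2.74-fold peak, from 7121161 to 7121429 and 7.30 kb upstream, was above only 0.569% of all peaks and was the weakest IGF peak. It held GTCACG on the minus strand, centred 13.5 bp from its summit. All 6 peaks also lay in the window of Igfbp1, the liver binding protein gene next to Igfbp3, which contained no peak.

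Igfbp4, a binding protein that mainly inhibits IGF action until a protease cleaves it, had 2 peaks, both downstream. Igfbp4 (ENSMUSG00000017493.5) is on the plus strand at chr11:98902558-98913969. The nearer peak, from 98917279 to 98917519, was 3.42 kb past the end of the gene with 4.16-fold enrichment, above 20.6% of peaks. The stronger peak, from 98980713 to 98980971, was 78.3 kb from the TSS with 5.76-fold enrichment. It lay 30.2 kb from the TSS of Tns4, a focal adhesion gene. The nearest peak upstream was 133 kb away, outside the window, with 4.71-fold enrichment.

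**Figure D3:**
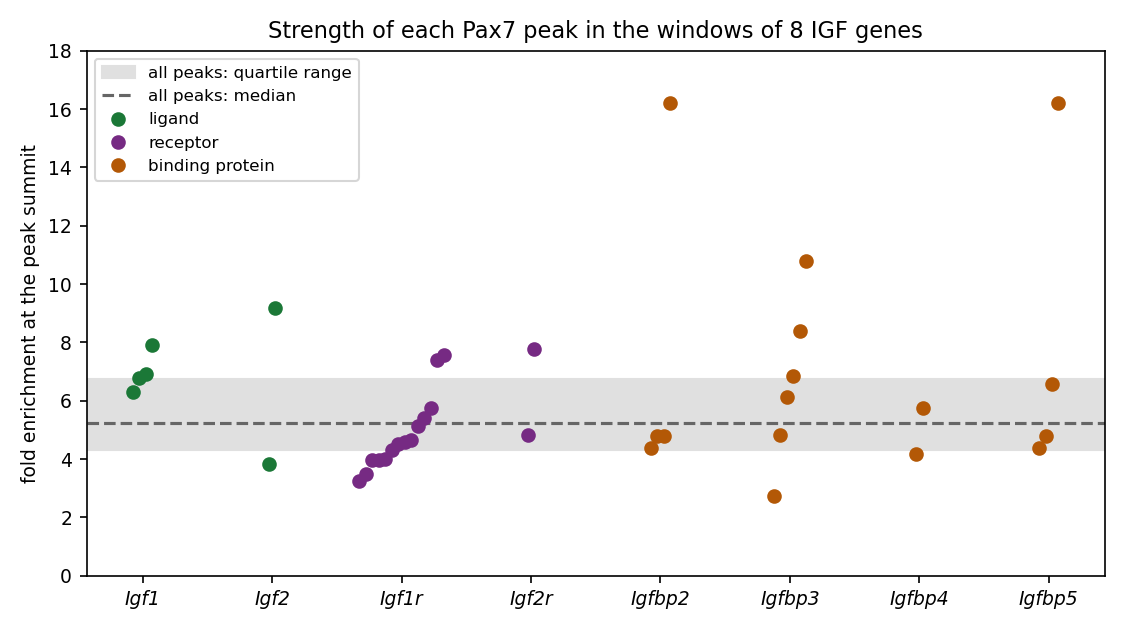
Fold enrichment at the summit (y axis) of each Pax7 peak in the window of each IGF gene (x axis), with 1 point per gene and peak pair. Igf1 peaks sit between 6.32 and 7.91, Igf1r peaks between 3.24 and 7.56, and the shared peak of Igfbp2 and Igfbp5 at 16.2.

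The median fold enrichment of the 35 IGF peaks was 5.12, with a 95% order-statistic interval over peaks of 4.59 to 6.58, and the value of all peaks, 5.22, lay inside it. Of the 35, 18 reached 5-fold, or 51.4% (95% Wilson interval 35.6% to 67.0%), against 54.9% of all peaks. Peaks above the upper quartile of the list numbered 11 and those below the lower quartile 8. The median widths were 259 bp and 252 bp, and the median GC contents 44.6% and 45.5%. Intervals here cover counting error only.

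Most IGF peaks were distal. A summit within 1 kb of a TSS was found for 2 of 35 (5.71%, 1.58% to 18.6%), and the share over all peaks, 16.3%, was inside that interval. Intergenic summits numbered 16 (45.7%) against 39.0%, and introns held 15 (42.9%) against 42.1%. The median distance to the nearest TSS was 20.8 kb against 16.7 kb.

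The shares of IGF peaks with a Pax motif had wide intervals that held the share over all peaks. Within 50 bp of the summit, 5 of 35 held any of them (14.3%, 6.26% to 29.4%), against 14.6% of all peaks. The core GTCACG was found at 3 (8.57%, 2.96% to 22.4%) against 11.1%, and in flanks of equal width 500 bp away it was found at 1.24% and 1.31% of all peaks. Each composite was found at 1 IGF peak (2.86%), against 1.18% for ATTAGTCAC and 0.928% for ATTAGTCAT. Neither homeodomain dimer was found, a count of 0 of 35 that allows a share of up to 8.57%, and the shares over all peaks were 0.991% and 0.831%. A match is a description of the letters and not evidence of contact, and a missing match says only that these letters were not in the window.

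Among 46 other genes of the pathway, 42 had at least 1 peak (91.3%), 37 had a peak of 5-fold or more (80.4%) and 9 a peak of 10-fold or more (19.6%). The same shares over all protein-coding genes are 75.2%, 61.3% and 15.0%, and the median count was 3 against 2. The list includes Igfbp1, whose 6 peaks are all Igfbp3 peaks counted above, the 10.8-fold peak among them. Without it, 41 of 45 genes had a peak, 36 a peak of 5-fold or more and 8 a peak of 10-fold or more. The 4 genes with no peak were the insulin genes Ins1 and Ins2, Pappa, a protease that cleaves binding proteins, and Stc2, an inhibitor of that protease. All 9 genes of the PI3K and Akt arm and all 8 of the mTOR arm had a peak. No mTOR gene reached 10-fold, but 8 genes are too few to set this apart from the 15.0% over all genes.

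Receptor adaptors had the highest median of any group, 8.5 peaks over 6 genes. Irs1, the main adaptor of the IGF1 and insulin receptors, had 12 peaks, the strongest 13.4-fold in an intron 33.7 kb inside. Gab1, a docking protein, had 10 peaks, the strongest 21.9-fold in an intron 13.8 kb inside, which was above the strongest peak of any of the 8 IGF genes. Grb10, an adaptor that restrains the receptors, had 12 peaks, the strongest 13.4-fold and 154 kb downstream in an exon of the neighbouring gene Ddc.

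The other genes with the most peaks were Rptor, a scaffold of an mTOR complex, with 13, and Fbxo32, which encodes a ubiquitin ligase of muscle atrophy, with 9. Rptor exceeded 99.4% of protein-coding genes in count, but its strongest peak was 9.24-fold. Its window was long, 497 kb, with 26.2 peaks per Mb against a median of 9.16 over protein-coding genes. The strongest at Fbxo32 was 7.98-fold.

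**Figure D4:**
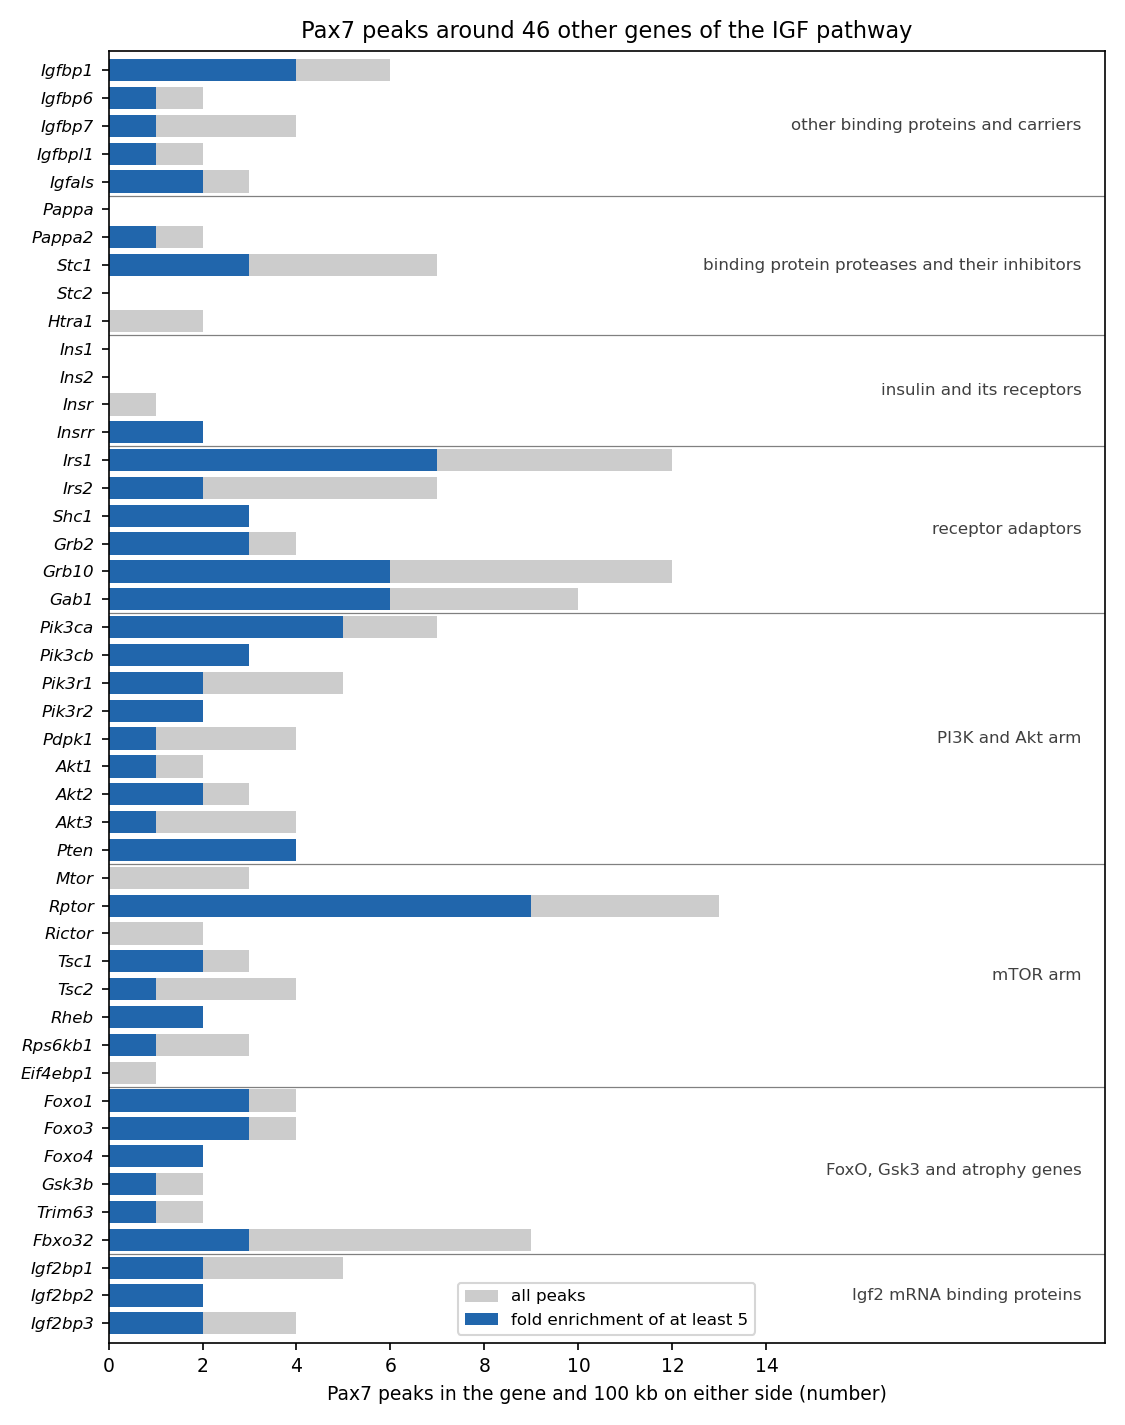
Number of Pax7 peaks (x axis) in the gene and 100 kb on either side for 46 other genes of the IGF pathway (y axis), grouped by role, in grey for all peaks and blue for those of at least 5-fold enrichment. The 6 peaks of Igfbp1 are those of Igfbp3, Rptor has 13, Irs1 and Grb10 have 12 each, and 4 genes have none.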

How the data were processed

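ChIP-seq libraries were aligned by the authors to NCBIM37/mm9 with bowtie2. Uniquely mapped reads were kept, duplicates were removed with Picard, replicates were merged, and MACS2 called peaks against the merged inputs with the q-value limited to 0.01. The submitters' processing notes name MACS2 and mm9.

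The deposited list gives for each peak a fold enrichment, a ratio computed by the authors at the summit, with −log10 values of both the p and the q. The deposited score is 10 times the −log10 q, rounded down. Coordinates and the summit offset complete each entry, and 0 columns of per-sample values were left unassigned.

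Summits were placed in windows of GENCODE genes extended by 100 kb and classed as within 1 kb of any TSS, then exon, intron or intergenic. Coordinates are 1-based. Both strands were searched for motifs, including the control GCACTG, up to 50 bp from the summit and in flanks 500 bp away. Intervals of shares are 95% Wilson intervals, and the limit for a count of 0 is 3 counts. The procedures were tested on simulated data. The tools were pysam 0.24.0, pandas 2.3.3, numpy 2.4.6, matplotlib 3.10.9 and scipy 1.17.1 under Python 3.11.15.

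The 8 genes and the list of 46 pathway genes were chosen with earlier results of these data known. Named peaks were, per gene, each peak within 1 kb of a TSS, the nearest and the 3 strongest, or all where at most 5 were present. Peaks with a Pax motif and the other peaks given coordinates were added after their values were seen. Pathway genes were named for 1 of the 5 highest counts or 3 highest fold enrichments. Alternatives were other windows, thresholds, merging, motif widths and TSS definitions. Leaving out each gene, whole-peak motif searches and genes of like length were added after the data were seen.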

Additional observations from a re-analysis of the deposited data

How the results depend on the processing

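Of 37 alternatives to the 8 main values, 27 moved none of them beyond the limits set and 10 did. Changes within those limits could still reverse a direction against all peaks. The share with GTCACG within 25 bp of the summit was 8.57% against 7.24% of all peaks. The main values were 8.57% against 11.1%, and with 100 bp 11.4% against 14.2%. The median fold enrichment, 5.12 with 25, 50 and 100 kb, was below the 5.22 of all peaks but above it with 200 kb. Of 48 alternatives to the counts of single genes, 20 moved the count by over 1.5 times, such as Igf1r from 14 to 9 at 25 kb and, at 200 kb, Igfbp4 from 2 to 7 and Igfbp5 from 4 to 7. The 35 peaks became 19 with windows of 25 kb, 23 with 50 kb and 18 with a fold enrichment of at least 5, and ranged up to 48 with 200 kb. The median of 4 peaks per gene became 1.5 with 25 kb, 2 with 50 kb, 6.5 with 200 kb and 1.5 with at least 5-fold. Igf2 and Igfbp2 had 0 peaks at 25 kb, and Igf2 had 0 at 50 kb, so 6 and 7 of the 8 genes had a peak there, against 49.8% and 62.1% of protein-coding genes. The density of 18.2 peaks per Mb became 9.35 with at least 5-fold, against 5.18 over all gene windows. The share of peaks within a TSS distance rose from 5.71% to 25.7% with 5 kb in place of 1 kb, against 29.4% of all peaks. The share with GTCACG was 0% among the 18 peaks of at least 5-fold, a count that allows up to 16.7%, against 12.8% of all such peaks. That count takes only matches wholly within 50 bp of the summit. The 5.40-fold Igf1r peak held GTCACG centred 49.5 bp from its summit, running past that limit. The 16.2-fold peak held it 306 bp away. Without Igf1r the 35 peaks became 21, with a median fold enrichment of 6.32. No paired analysis was possible because the peaks were called on merged libraries, and for the same reason neither replicate could be left out. The list gives no reads per peak, so the depth behind these values is unknown.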

Other observations

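Motifs of factors other than Pax were also counted within 50 bp of the 35 IGF summits. The E-box CAGCTG, bound by myogenic regulatory factors among others, was found at 6 peaks (17.1%, 95% Wilson interval 8.10% to 32.7%) against 15.7% of all peaks. Of these 6, 3 were at Igf1r and 2 at Igf2r. The AP-1 site TGANTCA was found at 5 peaks (14.3%, 6.26% to 29.4%) against 6.82% of all peaks, and 2 of the 5 were at Igfbp3. GGAATG and TGTGGT were each found at 3 peaks (8.57%), against 11.0% and 9.73% of all peaks. The control GCACTG was found at 0 of 35 IGF peaks, which allows a share of up to 8.57%, against 6.86% of all peaks.

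Over whole peaks, 7 of 35 held a Pax motif (20.0%), against 21.0% of all peaks, and 5 held GTCACG (14.3%), against 15.8%.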
